A study of Mus musculus with 2 samples.

Results

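The genes described are the 35 listed mouse receptors for dopamine, serotonin, adrenaline and noradrenaline, acetylcholine at muscarinic receptors, and histamine. They were taken by symbol from 21853 protein-coding genes of the GENCODE M21 annotation, and all 35 were found. They comprise 5 dopamine, 14 serotonin, 8 adrenergic, 5 muscarinic and 3 histamine receptor genes. Chromatin accessibility was measured by DNase-seq, in which DNase I cuts DNA that is not wrapped on nucleosomes and the cut ends are sequenced. The tissue was hippocampus, which 1 label calls a layer of it, from 2-month-old female mice of the hybrid strain B6CASTF1/J, a cross of C57BL/6J and CAST/EiJ. The study had 1 group of 2 libraries, numbered replicates 1 and 2, with no treatment and no second genotype, so no comparison between conditions was possible. The labels give the libraries 1 common donor record and a biosample record each, without stating how many animals were dissected, so differences between the 2 may be technical.

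Neurons that release dopamine, serotonin, noradrenaline, acetylcholine or histamine mostly have their cell bodies outside the hippocampus and send axons into it, where the receptors on local cells read the signal. All of these receptors except the Htr3 subunits, which form a ligand-gated cation channel, act through G proteins. Receptors coupled to Gs raise cyclic AMP, those coupled to Gi or Go lower it, and those coupled to Gq release calcium from internal stores. An accessible promoter is a state in which transcription factors and the polymerase can reach the DNA. It is not a measure of transcript or receptor level.

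The 2 libraries differed in how many peaks were listed. The longer deposited peak list held 129779 peaks over 24.5 Mb in replicate 1 and 71895 peaks over 14.6 Mb in replicate 2, with 227153 and 118610 footprints, which are short protected stretches inside accessible DNA. The value deposited for a peak is a signal that moved in steps of 0.00884 in replicate 1 and 0.01032 in replicate 2, so a value of 1 stood on 113.1 steps in replicate 1 and 96.9 in replicate 2. Promoters of all 6 listed markers of excitatory forebrain neurons and of all 4 listed dentate granule cell markers had a peak in both libraries, against 59.0% of all genes. Of 9 markers of monoaminergic or cholinergic neurons 2 had one, Dbh and Tph2, and of 7 microglial markers none had one in both while 4 had one in replicate 1 alone. Both libraries listed a peak at 3 of 4 CA1, 2 of 4 CA3 and CA2, 4 of 6 striatal and 2 of 7 GABAergic interneuron markers. The striatal list includes the receptor genes Drd1, with such a peak, and Drd2, without. The counts were 3 of 6 for astrocyte, 3 of 7 for oligodendrocyte, 1 of 5 for endothelial or pericyte and 1 of 5 for choroid plexus markers. Because the tissue is a mixture, a site open in few cells and a site weakly open in many cannot be told apart.

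A promoter peak was any peak that touched the 1 kb on either side of the transcription start site (TSS) of a protein-coding transcript, and a gene's promoter value was its highest peak value there. Replicate 1 listed a promoter peak at 28 of the 35 receptor genes (80.0%), against 63.4% of all protein-coding genes, and replicate 2 at 25 (71.4%), against 60.4%. Promoter peaks were listed in both libraries at 22 of the 35 receptor genes (62.9%), against 59.0% of all protein-coding genes. The other classes differed more from the share over all genes. A promoter peak in 1 library only was listed at 9 of 35 receptor genes (25.7%), against 5.77% of all genes. Among genes with a peak in either library that is 29.0% of receptor genes, against 8.91% of all. Of those 9, replicate 1 alone gave 6 (17.1%, against 4.41% of all genes) and replicate 2 alone gave 3 (8.57%, against 1.36%). No promoter peak in either library was found at 4 receptor genes (11.4%), against 35.2% of all genes. In the authors' shorter peak lists, a promoter peak in both libraries was listed at 13 of 35 receptor genes (37.1%), against 53.2% of all genes. Those 13 were 1 of 5 dopamine, 4 of 14 serotonin, 6 of 8 adrenergic, 2 of 5 muscarinic and 0 of 3 histamine receptor genes.

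The receptor promoters were also low in value. The median of the mean promoter value, with 0 where no peak was listed, was 0.831 for the receptor genes and 1.19 for all genes. A value over 1 in both libraries was reached by 11 of 35 receptor genes (31.4%), against 50.3% of all genes. No receptor gene passed 3 in both libraries (0 of 35), whereas 26.4% of all genes did. Among the 12895 genes with a promoter peak in both libraries the mean value had a median of 3.12 and quartiles of 1.68 and 5.07, and the highest receptor gene, Chrm1, lay below that median with 47.8% of those genes beneath it.

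**Figure D1:**
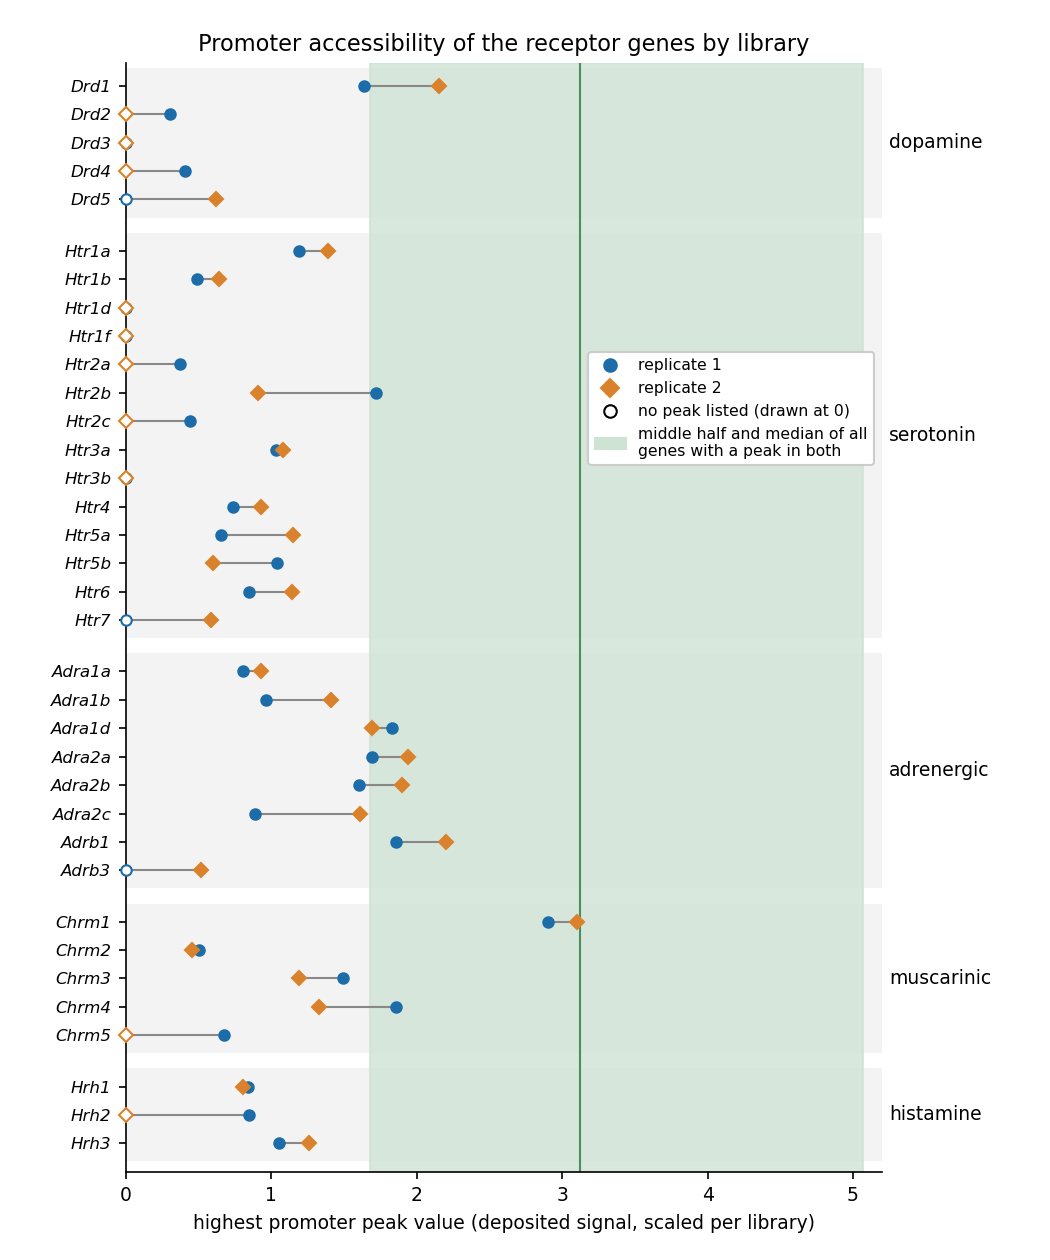
Highest promoter peak value (x axis, deposited signal) of each of the 35 receptor genes in replicate 1 (blue circles) and replicate 2 (orange diamonds), grouped by transmitter; open symbols at 0 mark no listed peak. The green band and line give the quartiles 1.68 and 5.07 and the median 3.12 of the mean value over all genes with a peak in both libraries, and no receptor gene lies to the right of that line in either library.

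Muscarinic acetylcholine receptors included the gene with the highest promoter value within 1 kb. Chrm1, the Gq-coupled muscarinic receptor that predominates in forebrain pyramidal cells, had promoter values of 2.90 in replicate 1 and 3.10 in replicate 2 (SD 0.138, n = 2). Its strongest peak was the same interval in both libraries, chr19:8664181-8664400 on GRCm38, with its middle 286 bp downstream of a TSS, in the 5′ UTR. With peaks within 100 bp of a TSS the mean of Chrm1 was 1.12. That was below Drd1 (1.90), Adra2a (1.47), Chrm3 (1.34), Htr2b (1.32) and Hrh3 (1.16), so the first rank of Chrm1 holds for the wider window. At the other end stood Chrm2, the Gi-coupled receptor known as the cardiac subtype and as a presynaptic autoreceptor, with 0.504 and 0.454, the lowest mean among the 22 genes, 0.479 ± 0.0354 (SD, n = 2). Chrm1 and Chrm2 were picked as the highest and lowest means of the 22 genes, so the gap between them follows from that choice. 

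Chrm3, a Gq-coupled receptor, had 1.49 in replicate 1 and 1.19 in replicate 2, at peaks centred 97 and 117 bp upstream of its start. Chrm4, the Gi-coupled receptor that in the striatum opposes dopamine D1 signalling, had 1.86 and 1.33, but both peaks lay in its coding exon, 792 and 808 bp inside the GENCODE model. RefSeq places the start of Chrm4 5060 bp further upstream, and a separate accessible region there had 1.77 in replicate 1 and 2.01 in replicate 2. Chrm5, the Gq-coupled receptor of midbrain dopamine neurons, had a peak in replicate 1 alone, at 0.672 and 985 bp upstream, at the edge of the window. The accessible sequence just upstream of the RefSeq start of Chrm4 (chr2:91921889-91922188, plus strand) and that of the Chrm3 promoter (chr13:10360848-10361060, minus strand) are shown as 2 muscarinic start-site regions whose footprints recurred in both libraries. Capitals here and in the sequences that follow mark bases covered, in either library, by footprints that overlapped between the libraries. Lengths of recurrent footprints are those of such stretches, and the footprint of 1 library may be shorter.
Chrm4 start: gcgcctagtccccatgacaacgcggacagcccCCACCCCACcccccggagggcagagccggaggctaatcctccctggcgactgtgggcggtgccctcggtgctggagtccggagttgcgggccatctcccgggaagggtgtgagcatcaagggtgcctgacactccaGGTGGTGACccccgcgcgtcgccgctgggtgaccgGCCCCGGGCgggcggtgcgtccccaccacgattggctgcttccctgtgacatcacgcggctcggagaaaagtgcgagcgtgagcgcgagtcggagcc
Chrm3 promoter: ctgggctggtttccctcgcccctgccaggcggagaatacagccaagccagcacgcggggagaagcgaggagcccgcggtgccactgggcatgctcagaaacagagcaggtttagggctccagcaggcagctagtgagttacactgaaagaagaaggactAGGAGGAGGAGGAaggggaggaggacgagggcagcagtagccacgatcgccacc
The Chrm4 stretch held 30 CpG dinucleotides in 300 bases and 3 such footprints, while the Chrm3 stretch held 10 in 213 bases and 1 footprint of 13 bases on a run of AGG repeats.

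Among adrenergic receptors, 7 of 8 genes were open at the promoter in both libraries, the highest share of the 5 groups at 1 kb. Within 500 bp of a TSS the count was 4 of 8, a lower share than in the serotonin, muscarinic and histamine groups, with 8 of 14, 3 of 5 and 2 of 3. Adrb1, the Gs-coupled beta receptor prevalent in forebrain, was highest, with 1.86 in replicate 1 and 2.20 in replicate 2. The alpha-2 receptors, which are coupled to Gi and act as autoreceptors on noradrenergic terminals and as receptors on target cells, followed: Adra2a had 1.69 and 1.94. Adra2b had 1.60 and 1.90. Adra2c had 0.884 and 1.61, the widest relative spread of the 7. Replicate 2 was higher at all 3 alpha-2 genes. Of the Gq-coupled alpha-1 receptors, Adra1d had 1.83 and 1.69, close to the alpha-2 values. Adra1b had 0.964 and 1.41, at peaks centred 249 and 229 bp upstream of the inner of its 2 coding TSSs, in an intron, with no peak within 1 kb of the outer one. Adra1a was lowest, with 0.805 and 0.929, and its peaks in the 2 libraries did not overlap: that of replicate 1 lay over the start and that of replicate 2 lay 820 bp downstream in an intron. Adrb3, the beta receptor best known from fat tissue, had no listed peak in replicate 1 and 0.516 in replicate 2, in a coding exon. The means of Adrb1, Adra2a, Adra1d and Adra2b, 2.03, 1.81, 1.76 and 1.75, differed from their neighbours in that order by less than the SD of at least 1 of each pair, which ran from 0.0978 to 0.241.

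The adrenergic promoter peaks mostly lay away from the TSS itself. Although 7 of 8 had a peak within 1 kb in both libraries, only Adra2a had a peak within 100 bp of a TSS in both. Across all 35 receptor genes the count within 100 bp was 13 (37.1%), against 52.4% of all protein-coding genes; it was 16 in replicate 1 (45.7%, against 56.4%) and 17 in replicate 2 (48.6%, against 54.6%). Adra1d and Adra2b carried their peaks 548 to 597 bp upstream of the annotated start, at nearly the same place in both libraries. The Adrb1 peaks were centred 298 bp upstream in replicate 1 and 468 bp upstream in replicate 2, and peaks covered 1420 bp of its window in replicate 2 against 820 bp in replicate 1. The Adrb1 promoter peak of replicate 1 (chr19:56721801-56722000, plus strand) and that of Adra2b (chr2:127362521-127362700, plus strand) are given because they lie well upstream of the start and hold footprints that recurred in both libraries.
Adrb1 upstream site: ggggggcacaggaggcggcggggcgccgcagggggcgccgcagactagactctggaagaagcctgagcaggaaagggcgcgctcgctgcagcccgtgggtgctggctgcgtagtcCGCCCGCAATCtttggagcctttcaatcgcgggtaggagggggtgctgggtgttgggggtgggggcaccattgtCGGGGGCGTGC
Adra2b upstream site: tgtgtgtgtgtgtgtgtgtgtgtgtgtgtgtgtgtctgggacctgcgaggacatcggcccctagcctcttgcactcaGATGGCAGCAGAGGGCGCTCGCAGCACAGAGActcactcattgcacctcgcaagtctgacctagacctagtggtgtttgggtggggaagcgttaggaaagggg
The Adra2b site opens with a TG repeat and then holds 1 recurrent footprint of 32 bases. Replicate 1 listed only the first part of that stretch. The 22 recurrent footprint bases of the Adrb1 site lie in 2 places 278 and 203 bp upstream of the start.

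**Figure D2:**
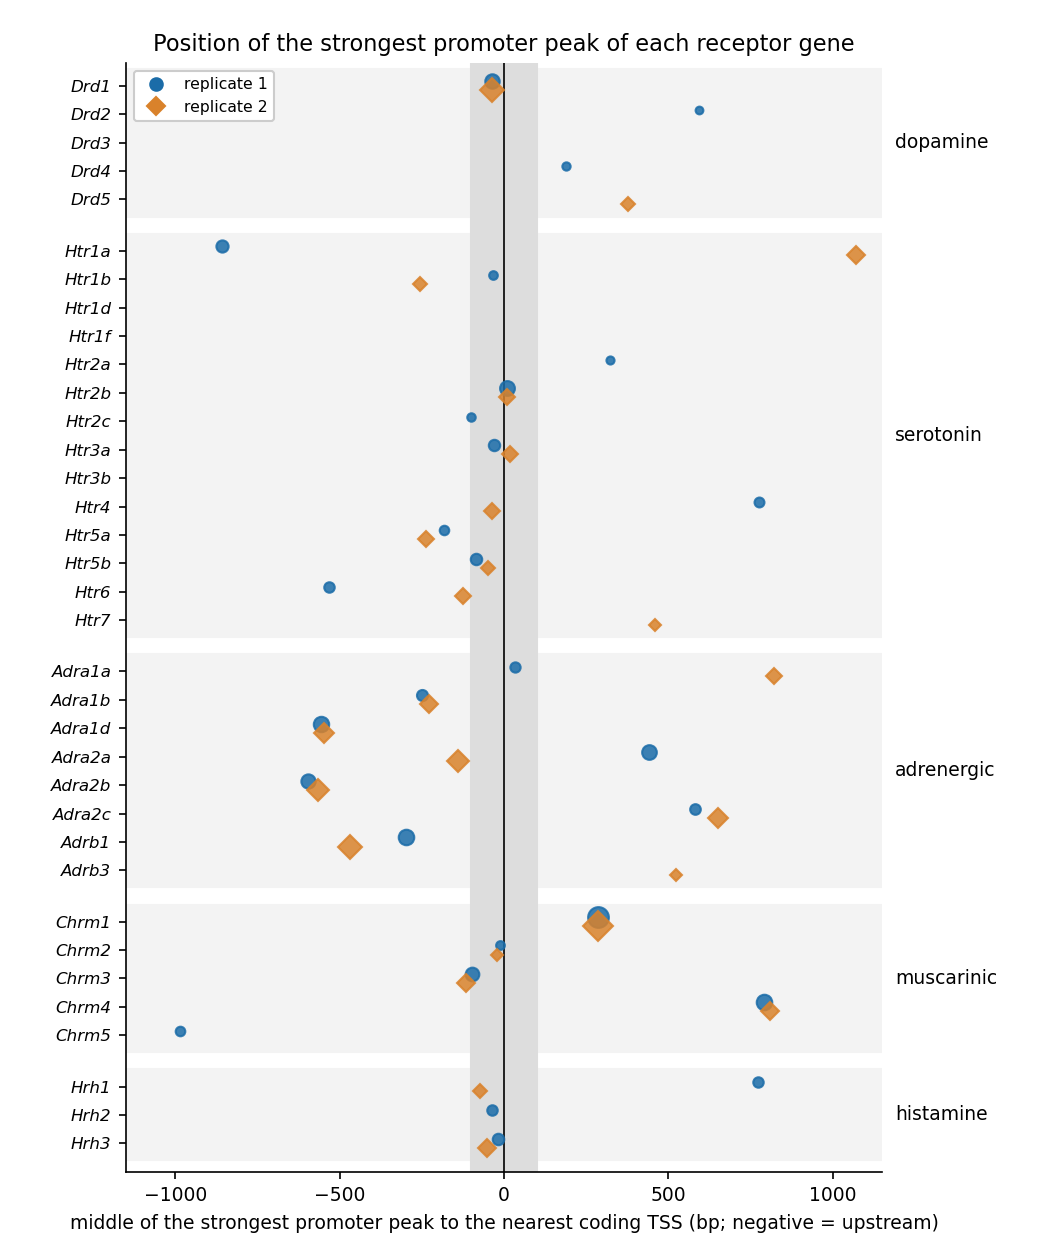
Distance in bp (x axis, negative upstream) from the middle of each receptor gene's strongest promoter peak to the nearest coding TSS, with symbol size growing with the value, for replicate 1 (blue circles) and replicate 2 (orange diamonds). Symbols of the adrenergic genes lie mostly outside the grey band of 100 bp on either side of the TSS, while those of Drd1, Htr2b, Htr3a, Htr5b, Chrm2 and Hrh3 lie inside it in both libraries.

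Dopamine receptors had the fewest open promoters, 1 of 5 in both libraries. That gene was Drd1, the Gs- or Golf-coupled receptor that is abundant in striatum and dentate gyrus, with 1.64 in replicate 1 and 2.15 in replicate 2. The same 200 bp interval was listed in both libraries, centred 36 bp upstream of a start. Its Gs-coupled relative Drd5 had no listed promoter peak in replicate 1 and 0.619 in replicate 2. Among the Gi-coupled members, Drd2 had 0.301 in replicate 1, a value of 34 steps, and none in replicate 2. Drd4 had 0.407 in replicate 1 alone. None of these 3 peaks lay within 100 bp of a start. Drd3 had no promoter peak in either library. The sequence upstream of the Drd1 start (chr13:54055706-54055840, minus strand) is shown as the only dopamine receptor promoter open in both libraries.
Drd1 promoter: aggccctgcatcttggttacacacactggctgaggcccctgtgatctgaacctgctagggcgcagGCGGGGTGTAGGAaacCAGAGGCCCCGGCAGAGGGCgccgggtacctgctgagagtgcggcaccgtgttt
Its 2 recurrent footprints, of 13 and 20 bases, lie 64 and 45 bp upstream of the start.

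Serotonin receptors were split, with 8 of 14 open in both libraries, 2 in replicate 1 alone, 1 in replicate 2 alone and 3 in neither. Htr2b had the highest mean, 1.32 ± 0.577 (SD, n = 2), and the widest disagreement, 1.72 in replicate 1 against 0.908 in replicate 2. Htr2b encodes a Gq-coupled receptor best known from heart and gut, and it lies inside the gene Psmd1, a proteasome subunit, though no other coding TSS lay within 2 kb of any receptor TSS. Htr1a, the Gi-coupled receptor that hyperpolarizes pyramidal cells, had 1.19 and 1.39. These strongest peaks lay 858 bp upstream in replicate 1 and 1072 bp downstream, in the coding exon, in replicate 2. Each library also listed a weaker peak at the other site, 0.787 in replicate 1 and 0.991 in replicate 2. Peaks within 500 bp gave Htr1a a mean of 0.755, against 1.29 within 1 kb. Replicate 2 covered 1559 bp of the Htr1a window with peaks, against 486 bp in replicate 1.

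The channel subunit Htr3a, a marker of a class of interneurons, had 1.03 in replicate 1 and 1.08 in replicate 2 over its start. Its partner subunit Htr3b, encoded by a neighbouring gene on the same strand and unable to form channels without Htr3a, had no promoter peak in either library. Both genes fall in the lowest CpG quintile, with observed over expected ratios of 0.19 and 0.18. The Htr3b promoter from the RefSeq table (chr9:48964991-48965240, minus strand, GRCm38) is printed as an example of a receptor gene start at which no base was listed under the authors' FDR limit in either library, with no capitals because no footprint lay there.
Htr3b promoter: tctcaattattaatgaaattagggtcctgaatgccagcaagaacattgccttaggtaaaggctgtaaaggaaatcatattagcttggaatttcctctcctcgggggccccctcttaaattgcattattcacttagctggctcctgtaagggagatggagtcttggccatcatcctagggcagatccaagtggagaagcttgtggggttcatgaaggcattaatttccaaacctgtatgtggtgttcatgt
It held 1 CpG dinucleotide in 250 bases.

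Of the Gs-coupled serotonin receptors, Htr6 had 0.849 in replicate 1 and 1.14 in replicate 2 at peaks that did not overlap. Htr4, which enhances transmitter release and excitability in hippocampal neurons, had 0.734 in replicate 1 and 0.929 in replicate 2. The strongest peak lay in an intron, 777 bp downstream, in replicate 1 and at the start in replicate 2. Each library also listed a weaker peak at the other site, 0.646 in replicate 1 and 0.764 in replicate 2. Htr7 had promoter peaks in replicate 2 alone, with a highest value of 0.588. The Gi-coupled Htr5a and its paralogue Htr5b went opposite ways between libraries: Htr5a had 0.654 in replicate 1 and 1.15 in replicate 2, and Htr5b had 1.04 in replicate 1 and 0.598 in replicate 2. Htr1b, the terminal autoreceptor, was the lowest serotonin gene with a peak in both, at 0.486 and 0.640. Its close relatives Htr1d and Htr1f had none in either library at GENCODE starts, although a second RefSeq start of Htr1d had a peak of 0.336 in replicate 1. Of the remaining Gq-coupled members, Htr2a, the cortical receptor of hallucinogens, had 0.371 and the X-linked Htr2c had 0.442, both in replicate 1 alone.

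Histamine receptors had open promoters in both libraries at 2 of 3 genes. Hrh3, the Gi-coupled autoreceptor and presynaptic receptor of brain, had 1.05 in replicate 1 and 1.26 in replicate 2 at its start. Hrh1, coupled to Gq, had nearly equal values of 0.840 and 0.805, but these strongest peaks did not overlap. They lay 773 bp downstream in replicate 1 and 74 bp upstream in replicate 2. Replicate 1 also listed a weaker peak, of 0.513, over the start. Hrh2, the Gs-coupled receptor of hippocampal pyramidal cells, had 0.849 in replicate 1, centred 38 bp upstream of its start, and no listed peak in replicate 2. This was the highest value of any of the 9 receptor genes with a peak in 1 library only, whose values began at 0.301.

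Grouped by signalling, a peak in both libraries was listed at 4 of 8 Gs-coupled, 10 of 15 Gi-coupled and 7 of 10 Gq-coupled genes and at 1 of 2 channel subunits. The share over all genes was 59.0%, and differences between these small groups were not tested. The 3 genes with a peak in replicate 2 alone, Drd5, Htr7 and Adrb3, were all Gs-coupled. The peak ranked strongest lay in a coding exon at all 3. Htr7 also had peaks of 0.578 and 0.588 centred 0.038 and 0.418 kb upstream of its most upstream coding TSS. The 3 Gq-coupled genes that missed a peak in replicate 2, Htr2a, Htr2c and Chrm5, each had one in replicate 1, and the 3 G protein-coupled genes with none were all Gi-coupled.

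Promoter CpG content was about that of other genes, but open promoters were spread more evenly over it, with 3 to 12 receptor genes per quintile. The highest ratio of observed to expected CpG within 500 bp of a gene's starts had a median of 0.586 in receptor genes and 0.614 in all genes. In the lowest quintile of that ratio, up to 0.21, a promoter peak in both libraries was listed at 2 of 3 receptor genes, Chrm1 and Htr3a, against 3.68% of all genes. In the next, 0.21 to 0.48, it was listed at 6 of 12 receptor genes, against 26.1% of all genes. The middle quintile gave 6 of 8 against 78.6%. In the upper 2 quintiles the receptor genes were lower, 6 of 9 against 91.8% and 2 of 3 against 94.9%, and the exceptions in those 2 quintiles, Drd2, Drd5, Htr2c and Htr7, each had a peak in 1 library.

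**Figure D3:**
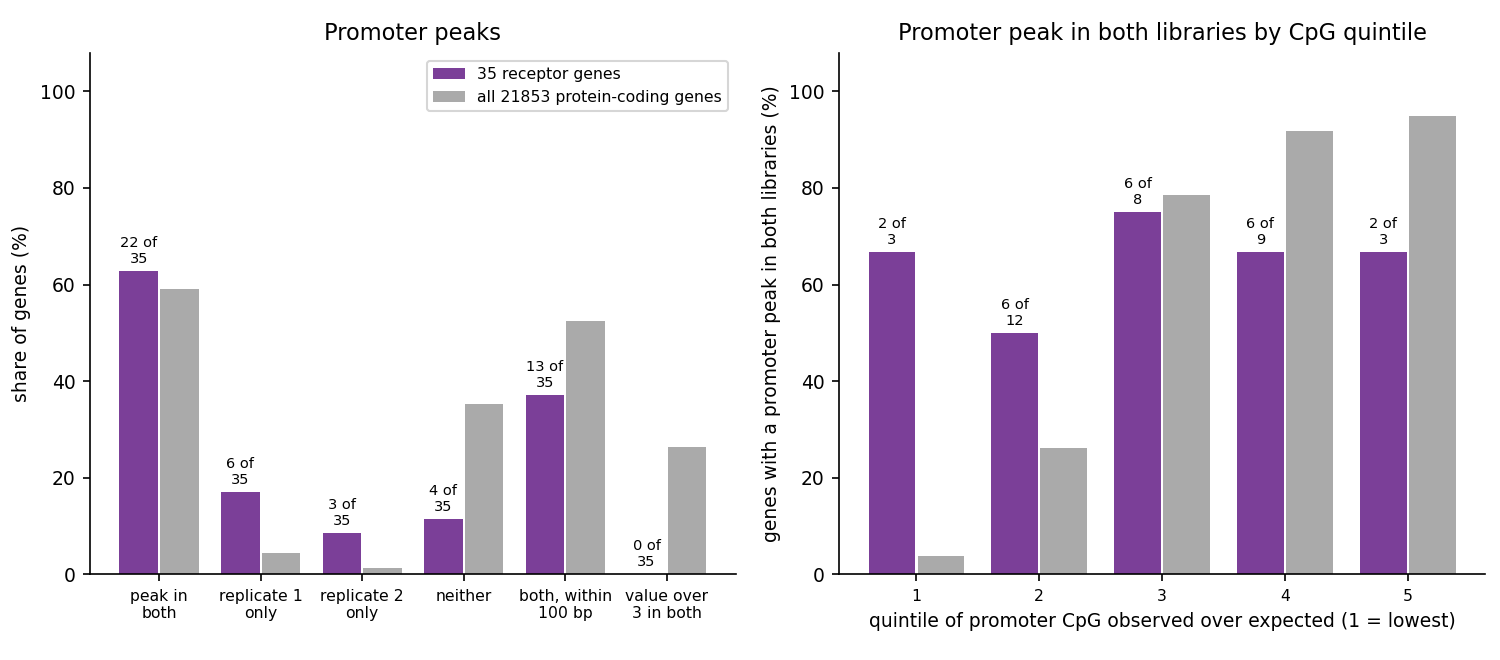
Left, share of genes (y axis, %) in 6 promoter classes for the 35 receptor genes (purple) and all 21853 protein-coding genes (grey), with the receptor counts above the bars. Right, share with a promoter peak in both libraries by quintile of promoter CpG ratio, which runs from 3.68% to 94.9% over all genes while the receptor genes stay between 6 of 12 and 6 of 8.

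Values of 18 of the 22 receptor genes with a promoter peak in both libraries lay within a factor of 1.5 between libraries, and the ratio of replicate 2 to replicate 1 ran from 0.527 at Htr2b to 1.82 at Adra2c. Replicate 2 gave the higher value at 15 of 22 receptor genes (68.2%), against 26.3% of all genes with a peak in both. Among genes with a mean no higher than that of Chrm1 the share was nearer, 45.0%. Replicate 2 was the library with fewer listed peaks, and its part in these values was not tested. Peaks covered more of the promoter window in replicate 2 than in replicate 1 at 13 of 31 receptor genes with a peak in either (41.9%), against 48.7% of all such genes. The strongest peaks of the 2 libraries overlapped at 15 of the 22 genes and did not at Htr1a, Htr1b, Htr4, Htr6, Adra1a, Adra2a and Hrh1. Any overlapping promoter peak was found at 20 of 35 receptor genes (57.1%), against 58.7% of all genes.

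Footprints in both libraries were listed within 1 kb of a start at 18 of 35 receptor genes (51.4%), against 56.0% of all genes. These footprints could lie anywhere in the window and did not need to overlap. In all there were 84 promoter footprints at receptor genes in replicate 1, 72 in replicate 2 and 21 overlapping pairs, at 13 receptor genes. Over all genes 26092 overlapping promoter footprints were listed. The longest stretch covered by overlapping footprints was at Chrm1, 41 bases at chr19:8664270-8664310. It lies in the 5′ UTR peak that gave this gene the highest value of the set.

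Letters of common promoter motifs were searched on both strands from 250 bp upstream to 50 bp downstream of the starts. The cyclic AMP response element TGACGTCA was found at 0 of 35 receptor genes, against 3.08% of all genes, and the Ets string CCGGAAGT at 0 of 35, against 6.35%. The GC box GGGGCGGGG was found at 5 of 35 (14.3%; Drd4, Drd5, Htr6, Htr7 and Hrh2), against 19.7%. The E-boxes CAGCTG and CATCTG were found at 4 of 35 (11.4%, against 26.0%) and 5 of 35 (14.3%, against 25.8%). The AP-1 string TGANTCA was found at 5 of 35 (14.3%), against 2623 of all 21853 genes. The Egr string GCGTGGGCG, at Htr7 alone, and GGACAGCGC, the right-hand part of the RE1 element, at Hrh3 alone, stood at 2.86% each, against 1.21% and 0.833%. A match or its lack describes these letters in these windows only.

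Reading the recurrent footprints led to a further search. The Adra2b and Drd1 footprints printed above lie on or run into the string AGAGGGCGC, a spelling of the core of the motif of CTCF, a factor that organizes chromatin loops. This spelling and AGGGGGCAG were added to AGGGGGCGC after the sequences had been read, so their counts describe these sites and are not a test. AGAGGGCGC lay within 20 bp of 2 of the 21 recurrent promoter footprints of receptor genes (9.52%), against 0.648% of 26092 recurrent promoter footprints of all genes. AGGGGGCGC lay beside 1 more, in the coding exon of Chrm4 (4.76%, against 1.10%). The printed Adrb1 site holds AGGGGGCGC as well, outside its recurrent footprints.

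Outside promoters, regions were counted where peaks of the 2 libraries overlapped by at least 1 bp, in the gene body and 20 kb on each side, away from every coding promoter window. At least 1 such region was found at 27 of 35 receptor genes (77.1%), against 63.2% of all genes. The median was 2.00 regions per receptor gene and 1.00 over all genes, with median search lengths of 58.6 and 57.4 kb. Per 100 kb the medians were 1.84 and 1.64. The 66 regions comprised 29 in introns, 16 downstream, 14 upstream, 4 in coding exons, 2 in 3′ UTRs and 1 in a 5′ UTR. For 51 of them the nearest coding TSS was that of the receptor gene itself, and 5 lay inside another coding gene. The median of their mean values was 1.01, beside 0.968 for all 40569 shared regions outside promoters. The shorter peak lists gave 30 regions in place of 66.

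The 5 muscarinic genes held 15 of these regions and the 3 histamine genes 9, a median of 3 per gene in both groups. The 14 serotonin genes held 26 and the 8 adrenergic genes 12, a median of 2.00 in both, and the 5 dopamine genes held 4, with a median of 0. Chrm3, whose body and flanks span 525.4 kb, had the most, 7 regions. Htr4 had 5 over 212.4 kb. Chrm1, with 4 in 59.8 kb, and Htr5b, with 4 in 58.6 kb, were far denser than either, and Hrh1 had 4 in 125.4 kb. Per 100 kb Chrm4 (7.24) and Adra2c (6.91) stood slightly above Htr5b (6.82) and Chrm1 (6.69). The Chrm4 count includes the region at its RefSeq start described above and a region inside the gene Dgkz. Htr6, Adra2c, Chrm4 and Hrh2 had 3 each, and the other 18 genes with any had 1 or 2. None was found at Drd1, Drd2, Drd4, Htr2b, Htr2c, Adra2a, Adra2b or Chrm5, a group that includes genes with promoter values high among the receptors (Drd1, Adra2a, Adra2b) and genes with a promoter peak in 1 library only (Drd2, Drd4, Htr2c and Chrm5). The Htr2c search spanned 274.8 kb and found 5 such peaks in replicate 1 and 0 in replicate 2.

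**Figure D4:**
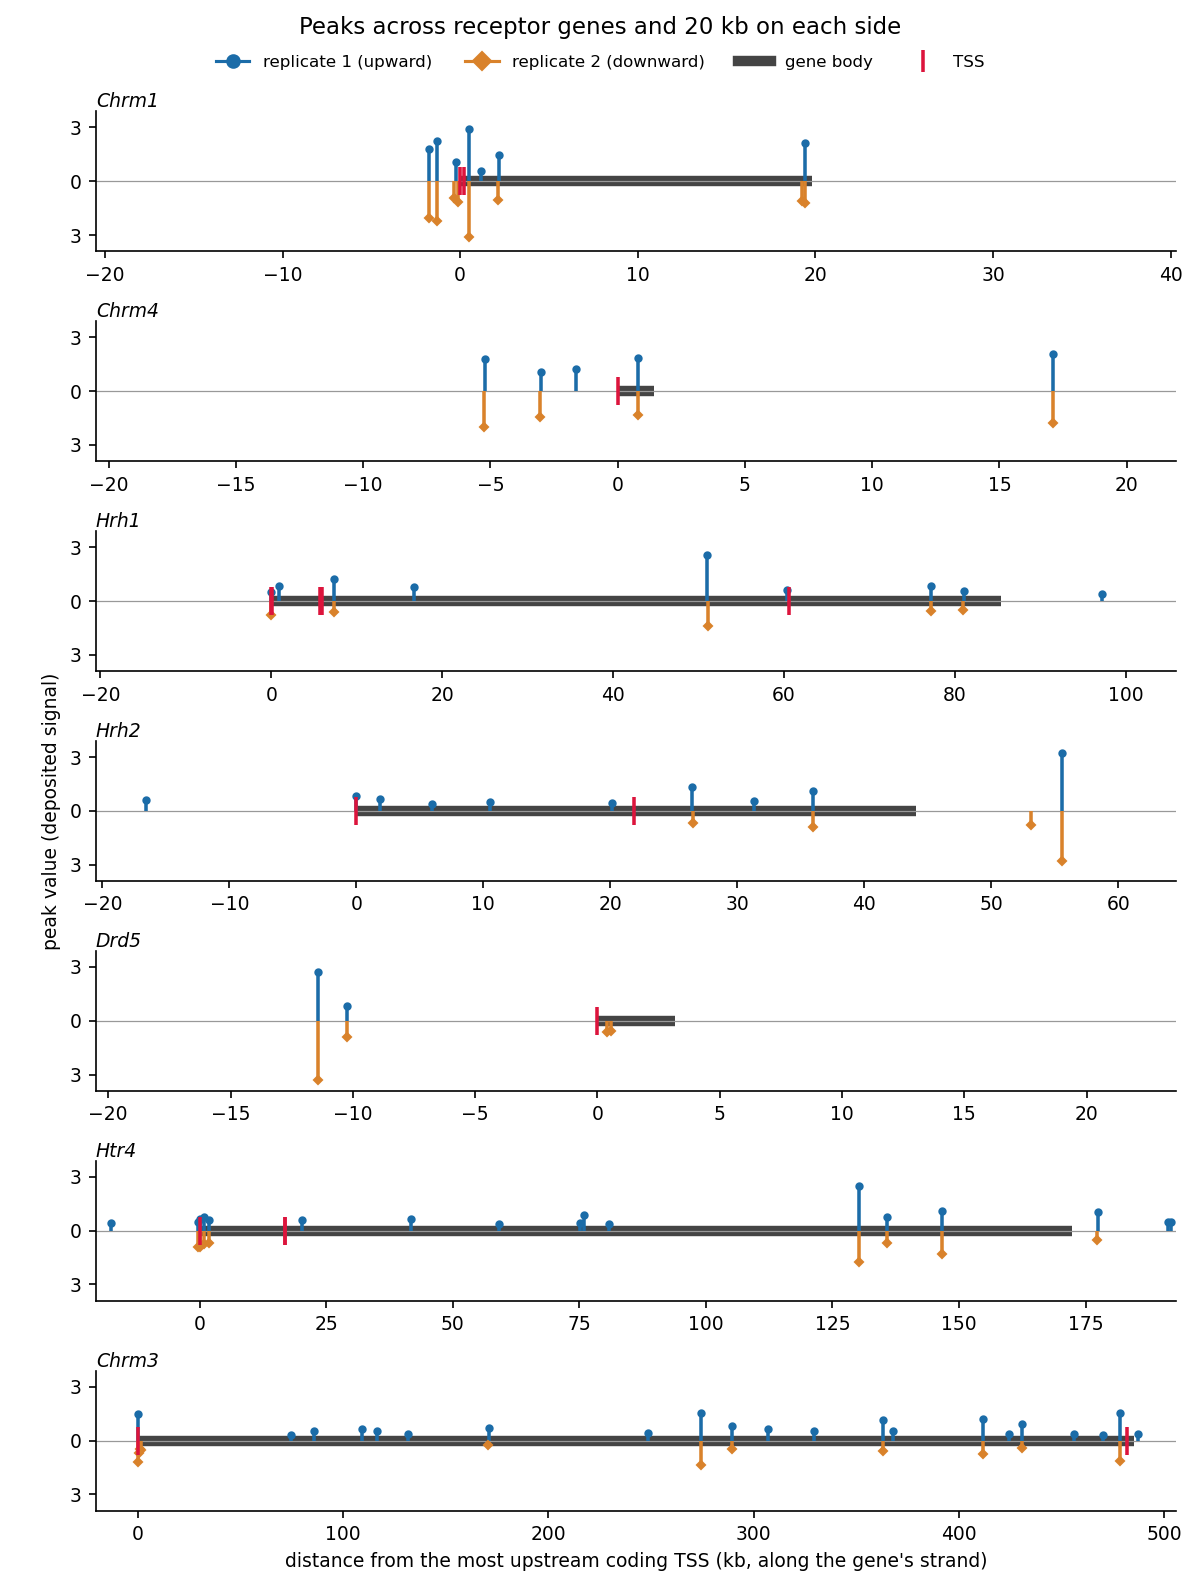
Peak values (y axis, deposited signal; replicate 1 upward in blue, replicate 2 downward in orange) along 7 receptor genes with 20 kb on each side, against the distance in kb from the most upstream coding TSS along the gene's strand. Chrm1 has its peaks clustered at the start and others near the end of the gene, Drd5 and Hrh2 have their strongest peak outside the gene, and most of the 20 peaks of replicate 1 outside promoters at Chrm3 have no partner in replicate 2.

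The strongest region stood 11.4 kb upstream of Drd5, with 2.72 in replicate 1 and 3.28 in replicate 2, above 97.1% of all shared regions outside promoters. The gene's own promoter peak was 0.619 in 1 library. A region 33.7 kb downstream of the nearest Hrh2 start was equally strong, with 3.22 and 2.78, while the Hrh2 promoter had 0.849 in replicate 1 and no peak in replicate 2. Among the 18 receptor genes with such a region and a promoter peak in both libraries, 8 had a region that exceeded the promoter value in both (44.4%), against 20.8% of all such genes. These were Htr1b, Htr3a, Htr4, Htr5b, Htr6, Chrm3, Chrm4 and Hrh1. Receptor promoter values were themselves low, and their part in this count was not tested. Of the genes with no promoter peak, Drd3 had an intronic region 40.0 kb from its start with 1.26 and 1.40.

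Other strong regions lay 1.31 kb upstream of Chrm1, with 2.24 in replicate 1 and 2.19 in replicate 2, and in an intron of Htr4, with 2.49 and 1.72. A region 10.7 kb upstream of Htr6 had 2.36 and 1.66 but lies in the gene Nbl1, whose start is nearer. An Hrh1 intron held a region with 2.56 and 1.39, the widest gap among the 10 strongest. Completing those 10 were a region 5.49 kb downstream of the Htr1b start with 1.63 and 2.25, a second Chrm1 region at 1.73 kb upstream with 1.79 and 2.07, one 17.1 kb from Chrm4 inside Dgkz with 2.05 and 1.79, and one 2.72 kb into Htr2a with 1.51 and 2.30. Replicate 1 gave the higher value in 45 of the 66 regions (68.2%), close to the 69.6% of all shared regions outside promoters. The order was thus opposite to that at the receptor promoters, where replicate 2 was mostly higher.

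**Figure D5:**
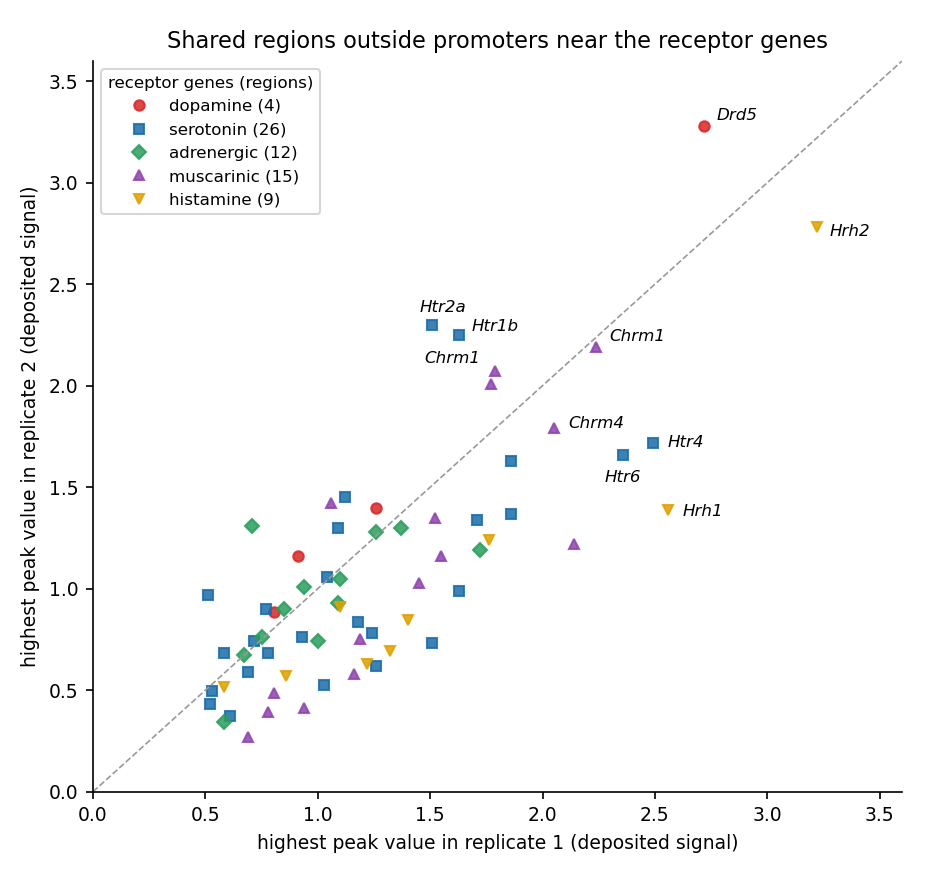
Highest peak value in replicate 1 (x axis) and replicate 2 (y axis), both as deposited signal, of the 66 shared regions outside promoters near receptor genes, coloured by transmitter, with the 10 strongest named and equality dashed. The Drd5 and Hrh2 regions stand apart at the upper right, and most points, 45 of 66, lie below the dashed line.

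The 2 strongest regions are printed with the recurrent footprints in capitals, at chr5:38307841-38308040 for Drd5 and chr13:54247621-54247860 for Hrh2, both on the plus strand.
Drd5 upstream region: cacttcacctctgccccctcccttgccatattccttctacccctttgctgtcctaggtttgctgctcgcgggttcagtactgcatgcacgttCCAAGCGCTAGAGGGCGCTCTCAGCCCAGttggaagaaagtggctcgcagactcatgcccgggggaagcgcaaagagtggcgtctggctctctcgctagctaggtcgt
Hrh2 downstream region: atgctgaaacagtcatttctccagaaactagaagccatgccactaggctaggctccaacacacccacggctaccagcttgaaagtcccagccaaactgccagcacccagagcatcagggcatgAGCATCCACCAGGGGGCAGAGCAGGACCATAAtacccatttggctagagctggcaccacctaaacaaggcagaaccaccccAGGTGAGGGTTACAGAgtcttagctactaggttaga
The long footprint of the Drd5 region covers AGAGGGCGC and that of the Hrh2 region covers AGGGGGCAG. AGGGGGCAG was found in 6 of the 66 regions (9.09%), against 2.51% of all shared regions outside promoters, and those 6 were regions of Chrm1, Chrm4, Drd5, Hrh2, Htr1b and Htr2a. Any of the 3 spellings was found in 10 of 66 (15.2%), against 6.57% of all. Of the 10 strongest receptor regions 6 held a spelling, and all 6 held AGGGGGCAG. Among all shared regions outside promoters at least as strong as the tenth of these, 552 of 4798 held a spelling (11.5%). AGAGGGCGC and AGGGGGCAG were picked after these regions had been read. Their shares here follow from that choice, so nothing was tested. AGGGGGCGC, the spelling searched from the outset, was in 2 of 66 (3.03%), against 2.03% of all. The E-box CATCTG, which the bHLH factors of forebrain neurons bind, was in 24 of 66 receptor regions (36.4%) and 34.8% of all.

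Genes around the receptors in the same signalling systems were described from 5 further lists by the same promoter rule. Over all protein-coding genes that rule gave a peak in both libraries at 59.0% and in neither at 35.2%. Of 31 downstream G protein signalling genes 29 had a peak in each library, led by Gna11, a Gq-family alpha subunit, with 11.3 in replicate 1 and 8.51 in replicate 2, and Prkaca, a catalytic subunit of protein kinase A, with 11.7 and 6.59. The 2 with none were Adcy7 and Plcb2. Desensitisation genes had one at 12 of 14, led by the receptor kinases Grk6, with 13.9 and 7.53, and Grk4, with 12.5 and 5.90. The values of these kinases in both libraries exceeded that of every receptor gene. Whether a TSS of another coding gene lay within 2 kb was looked up for the receptor genes only. A peak credited to a gene of the 5 further lists may therefore lie at a neighbour's start.

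Genes that make, carry or break down the transmitters were split. Of 23 genes of transmitter synthesis, transport and breakdown 9 had a promoter peak in each library and 11 in neither. The 9 were led by Slc18a1, a vesicular monoamine transporter, with 7.38 and 5.57, and Ache, acetylcholinesterase, with 3.36 and 2.95. Among the 11 were Chat, which makes acetylcholine, and Hdc, which makes histamine. Nicotinic receptor subunits, the channel counterpart of the muscarinic receptors, had a peak in both libraries at 3 of 16. Chrnb1, a muscle-type subunit, had 5.0 and 2.52, and Chrna7, the subunit of the homomeric hippocampal receptor, had 1.59 and 2.73. Chrna1 and Chrna10 were among the 11 with none. Of 15 trace amine receptors 0 had a peak in both libraries and 14, Taar1 and Taar2 among them, had none in either.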

How the data were processed

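DNase-seq was measured in 2 libraries of 1 group. Peak values are a signal that the authors deposited, in peak lists per library on mm10 (GRCm38) per the labels; its scale is not stated. Values below 1 were whole multiples of a library's step (100.0% within 0.05 steps), so it is scaled to each library. The deposited base lists give FDR values (read as q-values). How CAST/EiJ alleles were handled on the C57BL/6J assembly, the aligner and the callers: not given in the sources used here. The value in the footprint lists was constant and was not used.

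Promoter windows, gene regions and shared regions were intersected with GENCODE M21 using Python 3.11.15 and NumPy 2.4.6, and checked on simulated peaks. Sequences are from the RefSeq GRCm38.p6 assembly, read with pysam 0.24.0, and the Htr3b promoter from the RefSeq table, which held 28 of the 35 genes. Footprint capitals are the union of overlapping footprints. Receptor genes and lists were chosen with earlier results of these data known, so counts stand beside those of all genes with no test. Named genes were the highest and lowest per transmitter, every gene with a peak in fewer than 2 libraries, the 10 with most regions, the 10 strongest regions and, per further list, the 2 highest and, by alphabet, the first 2 without a peak.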

Additional observations from a re-analysis of the deposited data

How the results depend on the processing

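No paired analysis was possible because the study has 1 group of 2 libraries and no groups to pair. Both libraries listed a promoter peak at 22 of the 35 receptor genes. With the shorter peak lists this was 13, against 53.2% of all genes, so Htr1b, Htr5a, Htr5b, Htr6, Adra1a, Chrm2, Chrm4, Hrh1 and Hrh3 rest on peaks of the longer lists, and no histamine gene was left. A window of 100 bp, added after the data were seen, gave 13. Windows of 500 bp and 2.5 kb gave 18 and 22, equal numbers of peaks 20, every transcript's TSS 22 and RefSeq starts 21. Without replicate 1 or without replicate 2, the count from the library that remained was 25 to 28.

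The promoter footprint count of 18 stayed between 13 and 26 in all its alternatives, with 22 to 26 on leaving out a library. Genes with a region outside promoters numbered 19 without a flank to 33 without replicate 2, around 27. The 66 regions became 30 with the shorter lists, 37 without a flank, 107 with a flank of 50 kb and 45 with a reciprocal overlap of 50%. Leaving out a library gave 77 to 161 peaks, the last from replicate 1 alone, which lists more peaks. Apart from leaving out a library, promoter values were recomputed only where a gene kept a peak in both libraries. Peaks lost at a setting were therefore not counted. Of 129 recomputed values 122 moved by less than 1 SD, unchanged values included. The exceptions came with other windows: Chrm1 (1.12) and Adra2a (1.47) at 100 bp, Htr1a at 500 bp (0.755), Adra1a at 2.5 kb (1.05) and Hrh1 at all 3 (0.659 to 1.01). The lowest promoter value, at Drd2, stood on 34 steps in 1 library; the part of depth in peaks listed in 1 library was not tested, and no error over animals can be given.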
